A study of Mus musculus with 2 samples.

Results

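Laminins, nidogens, perlecan and fibronectin are proteins of the extracellular matrix, and dystroglycan and the integrins are the cell-surface receptors that hold cells to them. The 38 genes for these proteins were chosen by symbol, not by their measured level, from 43346 genes in the expression tables, of which 21474 were protein-coding. All 38 were found: 5 laminin α, 3 laminin β and 2 laminin γ chain genes, 3 genes for basement membrane linkers, dystroglycan, fibronectin, 15 integrin α and 8 integrin β subunit genes.

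A basement membrane is the thin protein sheet under an epithelium. Laminin chains join inside the cell into a trimer of one α, one β and one γ chain, and secreted trimers polymerise into the sheet, where nidogens and perlecan tie them to type IV collagen. Integrins are dimers of one α and one β subunit, and the α subunit largely sets which matrix protein is bound. Around the neural tube, the outer (pial) basement membrane anchors the end-feet of neuroepithelial and radial glial cells, and loss of laminin, dystroglycan or β1 integrin function is known to disturb it.

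RNA from 1 group was sequenced: neural tube, the precursor of brain and spinal cord, dissected from B6NCrl mice at day 11.5 of embryonic life. Replicate 1 pooled 109 embryos and replicate 2 pooled 88, of both sexes, so each value is an average over many animals. Both libraries started from 10 ng of RNA above 200 bases with added spike-in RNAs, and no treatment, genotype, age or tissue was set against another. The questions addressed are therefore which matrix and receptor genes the tissue held, in what proportions, and how closely both pools matched.

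Replicate 1 held 27638068 expected counts and replicate 2 held 29166901, and these genes took 0.210% and 0.209% of the counts assigned to genes. Levels are TPM (read counts per transcript length, scaled to a common total), so they can be compared between genes as well as between libraries. A gene's level sums all its annotated transcripts. Full-length coding transcripts are those with an annotated start and stop codon. Their values are given beside the gene level for part of the comparisons, and orders and folds given without them can change too. A median of 83.1 counts in replicate 1 and 84.3 in replicate 2 stood behind each TPM of these long genes. The tissue label was checked against markers: all 6 neural progenitor genes and all 6 neuron genes listed for this were detected, led by Vim at 971 TPM and Tubb3 at 740.3 TPM. Markers of other cells were detected too, with 8 of 8 genes each for skeletal muscle (summed level 447 TPM), mesenchyme (623 TPM), endothelium (200 TPM), neural crest and Schwann precursors (140.1 TPM), surface epithelium (61.3 TPM) and macrophages (61.1 TPM). The part of these cells in the levels below was not tested, and in whole tissue fewer cells of a type cannot be told apart from less RNA per cell.

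Several of the genes make proteins of different structure by leaving an exon in or out, and the splice junctions that separate the forms are shown because the isoform results below turn on them. Sequences are 5′ to 3′ from the GENCODE M21 transcripts of GRCm38, in lower case up to the junction and in capitals after it. In Fn1 (minus strand of chromosome 1) the exon called EDB lies at chr1:71613763-71614035 (273 bases) and the exon called EDA at chr1:71603660-71603929 (270 bases), and each encodes a fibronectin type III domain. In Itga6 exon A lies at chr2:71853534-71853663 (plus strand, 130 bases) and in Itga3 at chr11:95046449-95046590 (minus strand, 142 bases). Exon A changes the cytoplasmic tail and holds its own stop codon. In each pair the bases before the junction are the same, and those after it tell the forms apart.
Fn1 with EDB: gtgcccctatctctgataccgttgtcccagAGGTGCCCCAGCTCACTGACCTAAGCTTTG
Fn1 without EDB: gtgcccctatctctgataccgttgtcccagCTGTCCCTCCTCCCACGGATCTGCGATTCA
Fn1 with EDA: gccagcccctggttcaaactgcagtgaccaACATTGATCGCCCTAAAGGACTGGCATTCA
Fn1 without EDA: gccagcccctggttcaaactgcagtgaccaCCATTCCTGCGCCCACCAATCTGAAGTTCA
Itga6 with exon A: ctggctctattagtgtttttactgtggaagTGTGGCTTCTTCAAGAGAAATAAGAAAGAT
Itga6 without exon A: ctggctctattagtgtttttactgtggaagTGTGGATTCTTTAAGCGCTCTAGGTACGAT
Itga3 with exon A: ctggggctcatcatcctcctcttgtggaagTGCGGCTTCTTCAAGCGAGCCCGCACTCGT
Itga3 without exon A: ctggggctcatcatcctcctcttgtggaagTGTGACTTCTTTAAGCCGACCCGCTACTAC

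Fibronectin is bound by integrins α5β1, α8β1 and those with αV through its RGD site, and the stretch that encodes this site, upstream of EDA, is shown because those receptors are compared below. The codons of the site are in capitals.
Fn1 around the RGD site: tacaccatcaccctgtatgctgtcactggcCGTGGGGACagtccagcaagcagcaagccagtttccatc

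Of the 38 genes, 29 (76.3%) were detected, meaning 1 TPM or more in both libraries, beside 59.9% of all protein-coding genes. Their median was 6.185 TPM, against 4.395 TPM over all protein-coding genes, and their levels ran from 0.280 TPM for Lamb3 to 155 TPM for Itgb1. Below 1 TPM in both libraries were 7 genes: the epithelial laminin chain genes Lama3 and Lamb3, and the integrin genes Itga10, Itgam, Itgb4, Itgb6 and Itgb7. Of these, Lamb3 (1.29 and 1.63), Itgb4 (1.17 and 1.28) and Itgb6 (1.67 and 1.71) passed 1 TPM in both libraries on the posterior mean TPM, a second estimate in the same tables. Itga2 and Itgal reached 1 TPM in replicate 1 only.

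**Figure D1:**
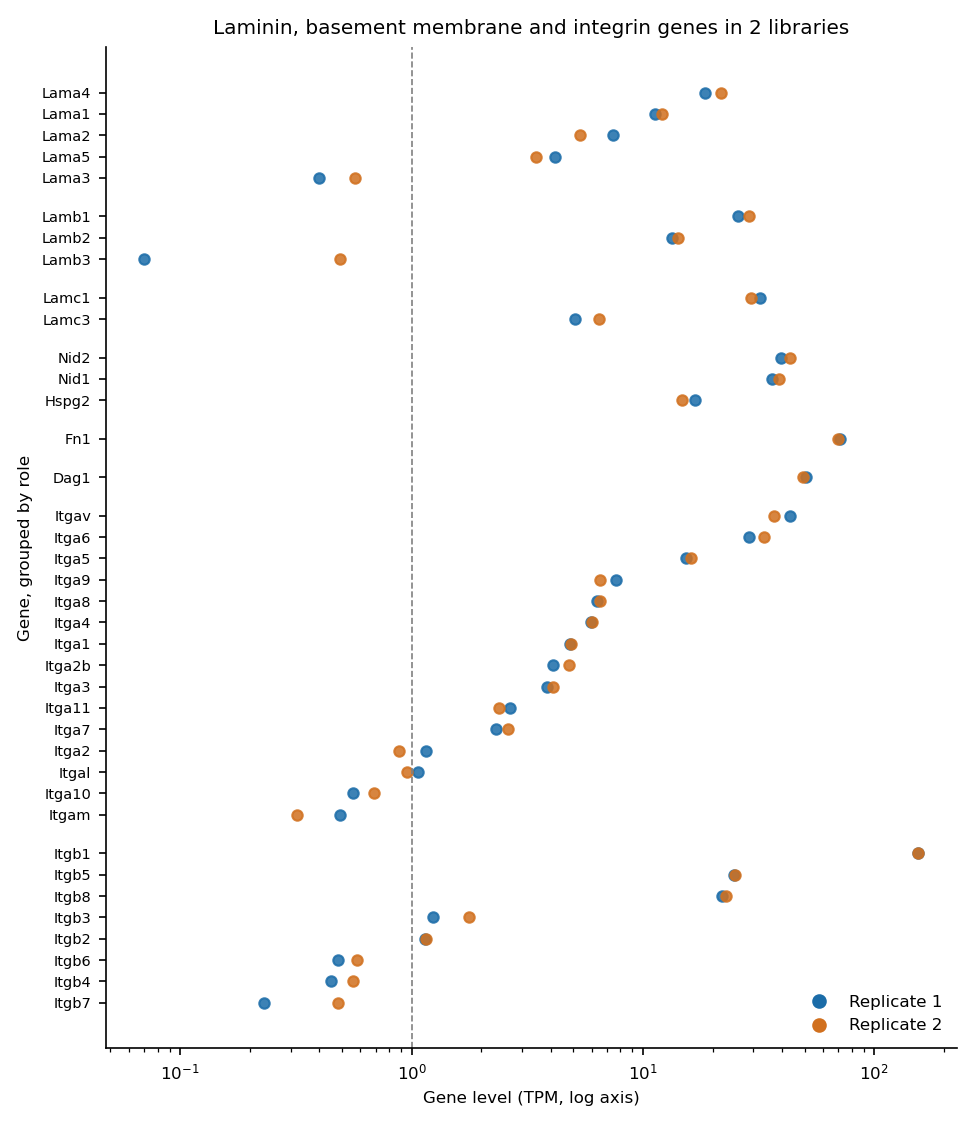
Level of each gene in TPM on a log axis, grouped by role, with replicate 1 in blue and replicate 2 in orange; the dashed line marks 1 TPM. Itgb1 stands highest at 155 TPM, and the 7 genes with both points left of the line include Lama3, Lamb3 and Itgb4.

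Lama4 was the most abundant laminin α chain gene. It encodes α4, a chain known from vessel and peripheral nerve basement membranes (ENSMUSG00000019846.7, chromosome 10, 38965515 to 39110188, plus strand, GRCm38). It had 18.48 TPM in replicate 1 and 21.71 TPM in replicate 2. Lama1, whose α1 chain is typical of early embryonic and pial basement membranes, followed with 11.23 and 12.12 TPM. Lama2, for the α2 chain of muscle and Schwann cell basement membranes, had 7.40 and 5.34 TPM. The lowest library of each of these genes lay above the highest library of the next, so the order held in both pools.

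Lama5, for the α5 chain of many embryonic epithelia and vessels, had 4.18 and 3.46 TPM, below both Lama2 values. Lama3, for the α3 chain of skin-type anchoring laminin, had 0.40 and 0.57 TPM. As shares of summed laminin α TPM, Lama4 took 47.3% ± 4.19 (SD, n = 2), Lama1 27.5% ± 0.791, Lama2 15.1% ± 3.81, Lama5 9.02% ± 1.43 and Lama3 1.14% ± 0.255. Lama4 exceeded Lama1 by 0.78 ± 0.09 on the log2 TPM scale, a fold of 1.72, or 1.32 on full-length transcripts.

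Lamb1 led the β chains with 25.74 and 28.62 TPM, and Lamb2, the β chain of neuromuscular and pial basement membranes, had 13.32 and 14.17 TPM. The groups did not overlap, and Lamb1 was 1.98-fold higher (log2 difference 0.98 ± 0.05), or 2.26-fold on full-length transcripts. Lamb3, the β partner of α3, was listed at 0.07 and 0.49 TPM from 4 and 6 counts, so its TPM differed 7-fold on almost equal counts. In replicate 2, 2.00 of these counts were assigned to Lamb3-207, a non-coding transcript of 355 bases, which gave 0.44 TPM of the gene's value.

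Lamc1, which encodes γ1, the γ chain of most laminins, stood at 31.93 and 29.33 TPM. Lamc3, for a γ chain of more limited occurrence, stood at 5.11 and 6.46 TPM. Lamc1 was 5.33-fold higher (3.01-fold on full-length transcripts), at 84.1% ± 3.01 of the γ chain TPM of these genes.

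Summed by class, α chain genes reached 42.4 ± 1.07 TPM, β chain genes 41.2 ± 2.93 TPM and γ chain genes 36.4 ± 0.884 TPM. The sum of β over the sum of α was -0.04 ± 0.07 on the log2 scale, within the spread between libraries, with a negative value in replicate 1 and a value near 0 in replicate 2. Both sums stood above the γ sum in both libraries, by 0.22 ± 0.07 for α and 0.18 ± 0.14 for β. On full-length transcripts these differences were 0.46 ± 0.09 and 0.42 ± 0.02, with the γ sum lowest in both libraries.

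The level of its scarcest chain is an upper limit to what the RNA of a trimer could provide, if every message gave the same amount of protein, which RNA does not measure. The 11 trimers considered were made only of chains detected above, and none held Lama3 or Lamb3. That every chain stood at 1 TPM or more in both libraries thus follows from this choice. Laminin α4β1γ1 had the highest scarcest chain, Lama4 at 20.1 ± 2.28 TPM. Next came α4β2γ1 at 13.7 ± 0.601 TPM, where Lamb2 was scarcest, and α1β1γ1, the first laminin of the embryo, and α1β2γ1, both at 11.7 ± 0.629 TPM. On full-length transcripts α1β1γ1 kept 11.7 TPM and stood above α4β2γ1 and α1β2γ1, both at 9.43 ± 0.693 TPM, in both libraries. The trimers with α2 and γ1 stood at 6.37 ± 1.46 TPM and those with α5 and γ1 at 3.82 ± 0.509 TPM. Chains are shared between trimers, so these levels cannot be added.

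The nidogen genes Nid1 and Nid2 encode the rod-like proteins that bridge laminin γ1 and collagen IV. Nid2 had 39.49 and 43.39 TPM and Nid1 had 36.23 and 38.95 TPM, so Nid2 stood above Nid1 in each library by 1.10-fold and the libraries did not overlap. That order has a limit: 6.54% of Nid2 sequence lies in an overlap with Rtraf, a gene on the opposite strand at 191 TPM, and the sources used here do not say whether reads were counted by strand. Hspg2, which encodes the heparan sulfate proteoglycan perlecan, had 16.78 and 14.82 TPM, below both nidogens in both libraries.

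Dag1 makes dystroglycan, a receptor that binds the globular domains of laminin, perlecan and agrin through sugar chains (ENSMUSG00000039952.11, chromosome 9, 108204634 to 108263958, minus strand). It had 50.94 and 49.21 TPM, the highest laminin receptor gene apart from Itgb1. Dag1 was 1.62-fold above Itga6 and 3.17-fold above Hspg2 in TPM. On full-length transcripts it was 3.22-fold above Itga6 and 4.19-fold above Hspg2. All 17 matched genes for dystroglycan glycosylation and partner proteins passed 1 TPM in both libraries, with 15.7 TPM as their median. They were led by the sarcoglycan gene Sgce at 44.7 TPM and by 3 genes for enzymes of the sugar chain: Pomgnt1 at 40.5 TPM, B4gat1 at 32.1 TPM and B3galnt2 at 24.3 TPM.

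Fn1, the fibronectin gene (ENSMUSG00000026193.11, chromosome 1, 71585520 to 71653200, minus strand), had 71.35 and 69.76 TPM from 7005 and 7287 counts. It was the highest matrix gene of the 38 on gene TPM, above Nid2 in both libraries. Full-length Fn1 transcripts had 35.83 and 37.57 TPM, below Nid2 (39.49 and 43.39) and Nid1 (36.23 and 38.95) in each library. Its receptor genes Itga4, Itga5, Itga8 and Itgav summed to 68.3 ± 3.66 TPM.

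Among integrin α genes, Itgav, Itga6 and Itga5 were the highest on gene TPM. Itgav, for the αV subunit that pairs with several β subunits and binds RGD proteins, had 43.23 and 36.92 TPM (ENSMUSG00000027087.7, chromosome 2, 83724397 to 83806916, plus strand). Itga6, for the laminin-binding α6 (ENSMUSG00000027111.11, chromosome 2, 71745616 to 71858416, plus strand), had 28.76 and 33.24 TPM. Itga5, for the fibronectin-binding α5, had 15.36 and 16.22 TPM. The libraries of these genes did not overlap, but the order of Itgav, Itga6 and Itga5 did not hold when only full-length coding transcripts were counted, as described below.

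A middle group spanned 2.31 to 7.62 TPM. Itga9, for the tenascin-binding α9, had 7.62 and 6.51 TPM and overlapped Itga8, for an RGD-binding subunit, which had 6.32 and 6.53 TPM. Itga4, whose α4 binds fibronectin and Vcam1, had 5.97 and 6.03 TPM. Itga1, for a subunit that binds collagen and laminin, had 4.83 and 4.91 TPM. These 4 genes lay close together: only Itga9 and Itga8 overlapped, while Itga8 and Itga4 differed 1.07-fold. That small difference has the same limit as the nidogens: 6.56% of Itga4 windows also occur in other genes. Cerkl, at 1.99 and 4.88 TPM, overlaps Itga4 on the opposite strand.

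Lower in this group, Itga2b, the platelet subunit αIIb, had 4.08 and 4.80 TPM and overlapped Itga3. Itga3, whose α3 binds α5-type laminins, had 3.84 and 4.10 TPM. Itga11, a collagen-binding subunit gene, had 2.67 and 2.38 TPM and overlapped Itga7, for the laminin-binding α7 of muscle, with 2.31 and 2.62 TPM. Neither Itga2b and Itga3 nor Itga11 and Itga7 were separated beyond the spread between libraries.

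Itga2, for a further collagen-binding subunit, had 1.16 and 0.88 TPM and overlapped the leukocyte gene Itgal, with 1.07 and 0.96 TPM. Itga10, the cartilage-type collagen receptor gene, had 0.56 and 0.69 TPM, and Itgam, the αM gene of macrophages, had 0.49 and 0.32 TPM from 39 and 24 counts. In M21, 27.56% of Itga10 windows of 100 bases and 64.3% of Itgam windows also occur in other genes. A further M21 gene model overlaps each of them on the same strand, Gm42957 and Gm49368. Neither model had a gene level of its own in these data. However, 2 transcripts that M21 assigns to Gm49368 were counted within Itgam here, at 0 TPM in both libraries. By posterior mean TPM they held 30.2% and 44.4% of the coding Itgam transcripts with an annotated stop codon. Whether shared sequence affected the Itga10 and Itgam levels was not tested. Macrophage markers stood at 62.52 and 59.68 TPM summed. Platelet lineage markers stood at 86.94 and 96.83 TPM summed, led by Pf4 at 56.6 TPM.

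By ligand, the laminin-binding α genes Itga3, Itga6 and Itga7 summed to 37.4 ± 3.57 TPM. The collagen-binding α genes Itga1, Itga2, Itga10 and Itga11 summed to 9.04 ± 0.255 TPM. Itga1 and Itga2 are for subunits that bind laminin too, but were counted in the collagen-binding sum only. The fibronectin-binding sum was 1.83-fold above the laminin-binding sum, which in turn was 4.13-fold above the collagen-binding sum. On full-length transcripts these folds were 1.97 and 2.35. Within the laminin-binding group, Itga6 was 7.79-fold above Itga3 and 12.6-fold above Itga7, and 3.83-fold and 5.99-fold on full-length transcripts. Direction was the same in both libraries for each of these ratios.

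Itgb1, for β1, the partner of most α subunits (ENSMUSG00000025809.11, chromosome 8, 128685654 to 128733200, plus strand), had 154.61 and 155.05 TPM from 9995 and 10330 counts. It took 75.1% ± 0.581 of the TPM of the 8 β genes. Itgb5 and Itgb8, partners of αV that bind vitronectin and latent TGF-β, had 24.65 and 25.10 TPM, and 21.92 and 22.85 TPM. Itgb1 was 6.22-fold above Itgb5, and Itgb5 was 1.11-fold above Itgb8 with no overlap. This small difference is limited by shared sequence: 5.74% of Itgb5 windows also occur in other genes, against 0% for Itgb8.

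The other β genes were low. Itgb3, the partner of αV and αIIb, had 1.24 and 1.78 TPM, and Itgb2, the leukocyte β gene, had 1.14 and 1.16 TPM. Itgb6, for an epithelial partner of αV, had 0.48 and 0.58 TPM, and Itgb4, for the hemidesmosome subunit, had 0.45 and 0.56 TPM. Itgb7, for a lymphocyte subunit, had 0.23 and 0.48 TPM from 10 and 22 counts. Itgb6, Itgb4 and Itgb7 overlapped with their neighbours, and Itgb8 was 42.4-fold above Itgb6 and 15.1-fold above Itgb3. With posterior mean TPM the difference of Itgb8 and Itgb6 was 3.68 on the log2 scale, against 5.41 with TPM. None of the 4 other integrin genes looked up was detected: Itgae had 0.32 and 0.27 TPM, and Itgax, Itgad and Itgb2l had 0 counts in both libraries. A count of 0 allows up to 3 counts, or 0.0437 TPM for Itgax, 0.0691 TPM for Itgad and 0.0838 TPM for Itgb2l in replicate 1, counting error only.

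The 15 integrin α genes summed to 127.7 ± 0.820 TPM and the 8 β genes to 206 ± 2.01 TPM. The 9 α genes that pair only with β1 summed to 44.8 ± 0.120 TPM, which was -1.79 ± 0.000976 on the log2 scale relative to Itgb1 alone. The β genes other than Itgb1 that pair with αV (Itgb3, Itgb5, Itgb6 and Itgb8) summed to 49.3 ± 1.43 TPM, 1.23-fold above Itgav itself and 3.08-fold above it on full-length transcripts. Itgb1 message was thus in excess of the α genes that depend on it, and Itgav message was not in excess of its other partners.

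Of 21 known integrin dimers considered, 14 had both subunits at 1 TPM or more in both libraries. Dimers with Itgae, Itgax or Itgad, which were not detected, were not among the 21, so this share depends on the choice of dimers. Ranked by the scarcer subunit, αVβ1 stood first at 40.1 ± 4.46 TPM, then α6β1 at 31.0 ± 3.17, αVβ5 at 24.9 ± 0.318, αVβ8 at 22.4 ± 0.658 and α5β1 at 15.8 ± 0.608 TPM. For every β1 dimer considered the α subunit was the scarcer one. The α6β4 dimer, the laminin receptor of hemidesmosomes, was limited by Itgb4 at 0.505 ± 0.0778 TPM, while Itga6 stood 61.6-fold higher, or 29.1-fold on full-length transcripts. The αVβ3 and αIIbβ3 dimers were both limited by Itgb3 at 1.51 ± 0.382 TPM.

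Set against each other, laminins and their receptors gave these levels. The α1 and α2 laminins are bound by α6β1, α7β1 and dystroglycan, whose scarcer subunits stood at 31.0 TPM, 2.465 TPM and 50.1 TPM. The α4 laminins are bound chiefly by α6β1. The α5 laminins are bound by α3β1, with Itga3 at 3.97 TPM beside Lama5 at 3.82 TPM, and by α6β1. On full-length transcripts Itga3 had 3.85 TPM and Lama5 1.115 TPM. Laminin α chain genes together stood 1.14-fold above the laminin-binding integrin α genes Itga3, Itga6 and Itga7, with the same sign in both libraries.

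**Figure D2:**
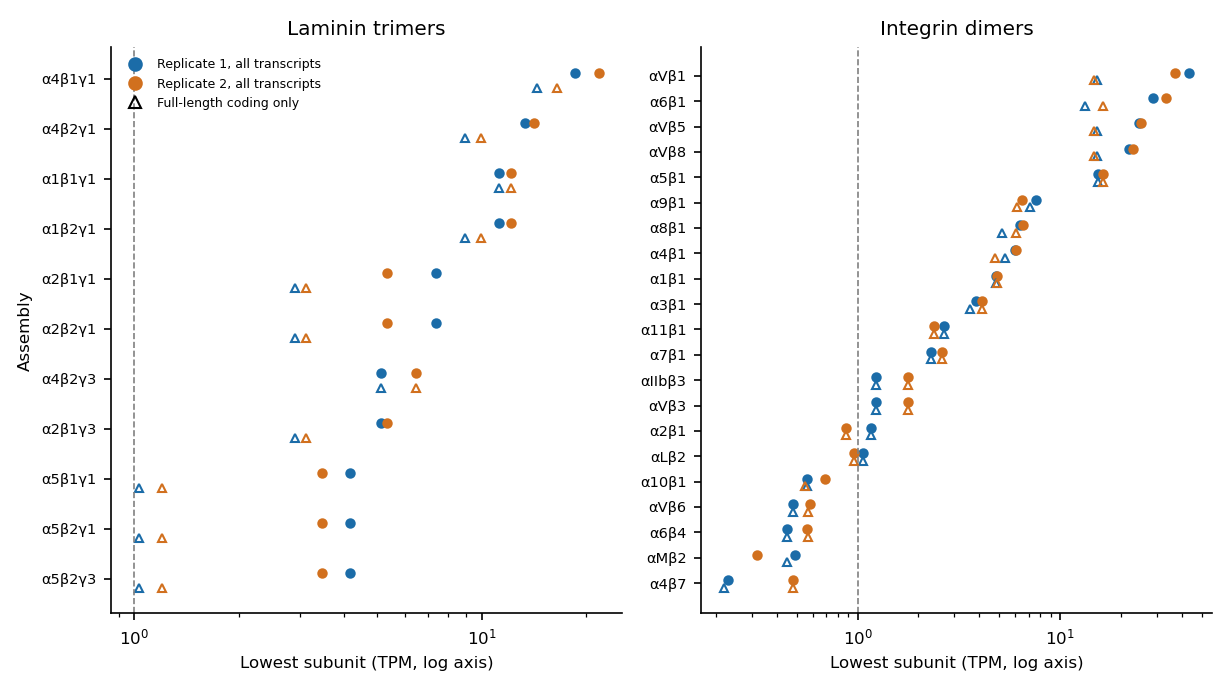
Level of the scarcest subunit in TPM on a log axis for 11 laminin trimers (left) and 21 integrin dimers (right); filled circles use all transcripts, open triangles full-length coding transcripts only, blue replicate 1 and orange replicate 2, and the dashed line marks 1 TPM. Laminin α4β1γ1 and integrin αVβ1 lead with all transcripts, αMβ2 has no triangle for replicate 2, where full-length Itgam was listed at 0, and αVβ1, α6β1, αVβ5, αVβ8 and α5β1 draw together near 15 TPM with full-length transcripts.

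The annotated transcripts of a gene include short or intron-retaining ones that make no whole protein. Full-length coding transcripts held 80.6% of the summed TPM of the 38 genes in replicate 1 and 82.2% in replicate 2. In the detected genes the median share was 93.7%, against 96.8% over 12781 detected protein-coding genes. The share was under 50% in 4 of the 29 detected genes (13.8%), close to the background of 10.4%: Lama5, Itgav, Itga6 and Lama2.

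In Itgav, full-length transcripts had 15.26 and 14.75 TPM, 37.6% of the gene's level. A partial coding transcript of 463 bases, Itgav-205, had 24.80 and 19.66 TPM from only 157 and 128 of the gene's 2030 and 1998 counts. A short transcript turns few counts into a high TPM. In Itga6, full-length transcripts had 13.25 and 16.37 TPM, and Itga6-203, a processed transcript of 2721 bases with no annotated coding sequence, had 12.52 and 13.23 TPM. On full-length transcripts alone Itgav, Itga5 and Itga6 stood at 15.0, 15.8 and 14.8 TPM, so the difference between Itgav and Itga5 changed sign, from 1.34 ± 0.22 to -0.07 ± 0.09 on the log2 scale.

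In Lama5, the full-length transcript had 1.03 and 1.20 TPM of the 4.18 and 3.46 TPM of the gene. In Lama2, full-length transcripts had 2.90 and 3.11 TPM, while the gene had 7.40 and 5.34 TPM. The difference between libraries in Lama2 thus lay in other transcripts: Lama2-206, a retained intron transcript of 643 bases, had 3.01 and 1.05 TPM from 28.4 and 10.2 counts. In Lamc1, 42.2% of the level was assigned to Lamc1-204, a partial coding transcript of 1447 bases, and full-length Lamc1 had 17.74 and 16.83 TPM. Full-length Lamb1 then stood above full-length Lamc1 by 0.30 ± 0.07 on the log2 scale, the opposite of the gene levels at -0.17 ± 0.20.

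Other genes had few such transcripts. Itgb1 (99.9%), Nid1, Nid2, Lama1, Itga5 and Lamc3 (each 100%) had nearly all of their TPM in full-length transcripts, and Dag1 had 94.7%. Lama4 kept the lead among α chains on full-length transcripts, with 48.6% ± 0.696 of their sum, and Lama1 rose to 36.9% ± 0.836. The number of genes at 1 TPM or more in both libraries remained 29.

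**Figure D3:**
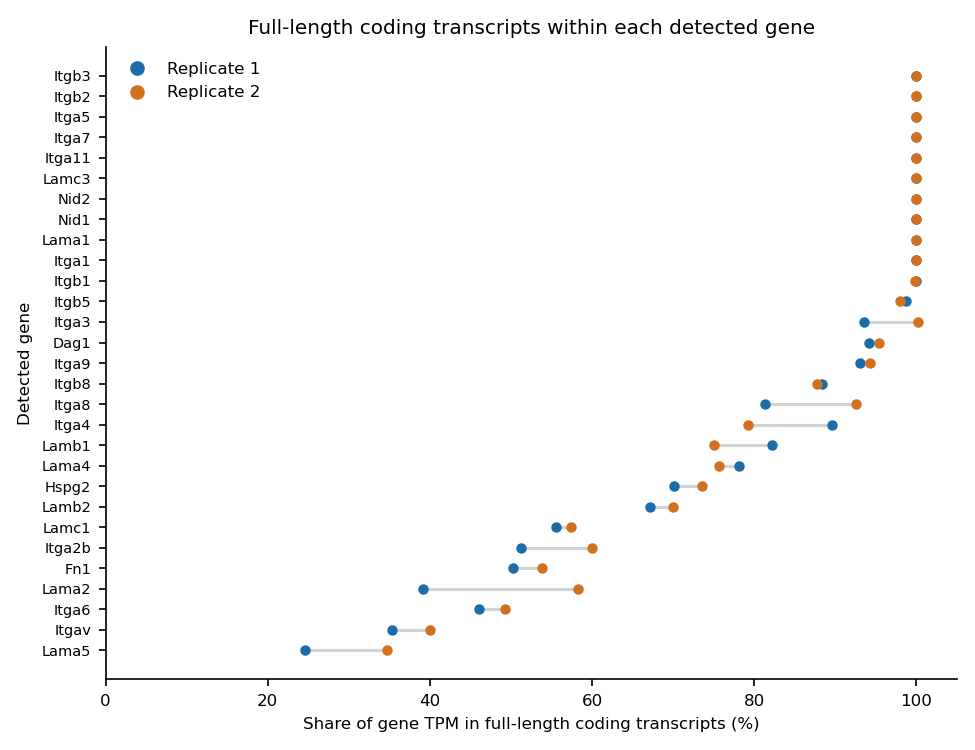
Share of each detected gene's TPM (%) that was assigned to full-length coding transcripts, replicate 1 in blue and replicate 2 in orange, genes ordered by the mean. Lama5, Itgav, Itga6 and Lama2 have means below 50%, and 15 genes lie at 90% or above.

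Transcript levels are estimates, since most reads fit several transcripts of a gene. EDB and EDA mark the cellular, embryonic form of fibronectin. The transcript that holds both, Fn1-201, was the most abundant Fn1 transcript, with 46.8% of the gene's TPM in replicate 1 and 44.1% in replicate 2. Among Fn1 transcripts over the EDB region, those with EDB had 33.36 TPM against 6.12 TPM without it in replicate 1, and 30.74 against 10.22 TPM in replicate 2. The share with EDB was 84.5% and 75.0%, 79.8% ± 6.68. EDB was present in Fn1-201 alone among the annotated transcripts.

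Transcripts with EDA had 35.00 TPM in replicate 1 and 36.00 TPM in replicate 2, a share of 58.3% and 60.5%. On full-length coding transcripts alone the share was 97.7% and 95.8%. The gap between these ways of counting lies in Fn1-202, a retained intron transcript of 4022 bases without EDA that had 24.16 and 21.92 TPM. The share of transcripts over the exon that hold EDA was thus 59.4% ± 1.54 with this transcript and others that are not full-length, and 96.8% ± 1.32 without them.

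The A and B tails of α6 were both present. Coding transcripts ending in exon A had 7.20 TPM in replicate 1 and 5.95 TPM in replicate 2, and the transcript that skips it and ends with tail B, Itga6-202, had 6.74 and 10.92 TPM. Tail B thus made up 48.4% of coding Itga6 TPM in replicate 1 and 64.7% in replicate 2, a mean of 56.5% ± 11.6, with tail A ahead in replicate 1 only through Itga6-207, a partial transcript at 0.69 TPM there. On full-length transcripts exon A was in 49.1% and 33.3%, with a nearly even split of 6.51 against 6.74 TPM in replicate 1. Over all transcripts that span it, exon A was in 25.3% and 18.4%. The form without it led in both libraries by both measures. The second measure includes Itga6-203, at 12.52 and 13.23 TPM without exon A, which has no annotated coding sequence and so no tail. In Itga3 tail A led in both, at 100% and 75.9%, with tail B listed at 0 TPM in replicate 1 and 0.99 TPM in replicate 2. Whether α6 and α3 differ in tail use was not tested, with 2 libraries and 1 group.

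**Figure D4:**
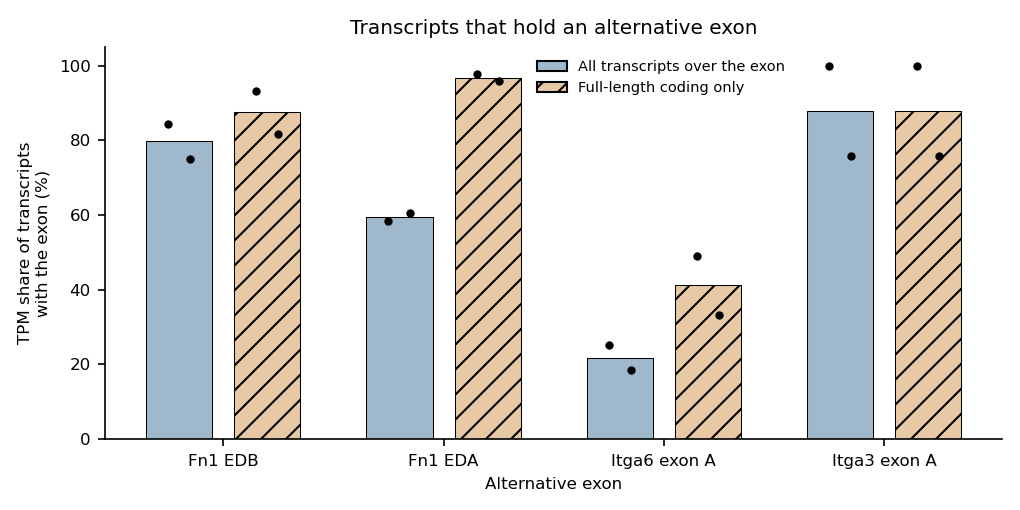
Share of TPM (%) in transcripts that hold each alternative exon, for all transcripts over the exon (plain bars) and full-length coding transcripts only (hatched bars); bars are means and dots the 2 libraries, replicate 1 left. The EDA share moves from 59.4% to 96.8% between the 2 ways of counting, while Itga3 exon A stays at 88.0%.

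Most of these genes differed little between the pools. Log2 ratios of replicate 2 over replicate 1 were computed from counts after TMM scaling, a factor per library that centres most genes at 0, for the 37 genes with 10 or more counts in a library (Lamb3 had fewer). The median size of the ratio was 0.13, beside 0.12 over all 17219 genes that passed the filter. Only Itgb7 (log2 ratio 0.92, 95% counting interval -0.09 to 2.29) and Itgam (-0.74, interval -1.59 to -0.02) differed by more than 1.5-fold, both on under 50 counts, beside 10.8% of all genes.

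The exact 95% counting interval left out 0 for 13 of the 37 genes (35.1%), 6 higher and 7 lower in replicate 2, beside 30.7% of all genes. Higher in replicate 2 by this interval were Itgb3 (0.47), Itga2b (0.38), Lamc3 (0.29), Itga6 (0.16), Lama4 (0.14) and Nid2 (0.09). Lower were Itgam, Itga4 (-0.17), Hspg2 (-0.16), Lamc1 (-0.13), Itgav (-0.11), Dag1 (-0.07) and Itgb1 (-0.04). The intervals cover counting error only and compare these libraries, not conditions, and with 1 library a side there is no test over pools.

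Marker genes of some cell types moved between the pools as well. Their sums are of TPM, which was not put on the TMM scale used for the counts. In summed TPM, replicate 2 over replicate 1, neuron markers differed by 0.22 on the log2 scale (higher in 6 of 6 genes) and neural crest and Schwann precursor markers by 0.26 (8 of 8). Skeletal muscle markers differed by -0.27 (0 of 8 higher) and mesenchyme markers by -0.14 (2 of 8 higher). Platelet lineage markers differed by 0.16 (6 of 8 higher), macrophage markers by -0.07 (3 of 8 higher) and endothelial markers by 0.10 (7 of 8 higher). The counting interval left out 0 for 6 of 6 neuron, 5 of 8 neural crest, 7 of 8 muscle and 6 of 8 mesenchyme genes. It did so for 2 of 8 platelet lineage and 2 of 8 macrophage genes, 1 up and 1 down in each list. For endothelial genes it was 1 of 8, beside 30.7% of all genes. None of these lists had a defining marker at 0, and their part in the differences was not tested.

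For 6 of the 37 genes (16.2%) the TPM ratio fell outside the counting interval of the count ratio, beside 10.1% of 17145 genes. For Lama2 the count ratio was -0.03 and the TPM ratio -0.47, and for Lama5 these were 0.10 and -0.27. Lamb1, Itga4, Itgav and Itgb1 were the others. TPM ratios were not TMM-scaled, and genes with only 1 annotated transcript also differed between the scales. Lama1 had 0.07 by counts and 0.11 by TPM, and Itga1 had -0.02 and 0.02. Itgb1, with 99.9% of its TPM in 1 transcript, had -0.04 and 0.004, with -0.0009 as the upper end of its interval. Its place among the 6 genes cannot be told apart from this difference of scale. For Lama2 and Lama5 the fall seen in TPM was not present in the counts.

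**Figure D5:**
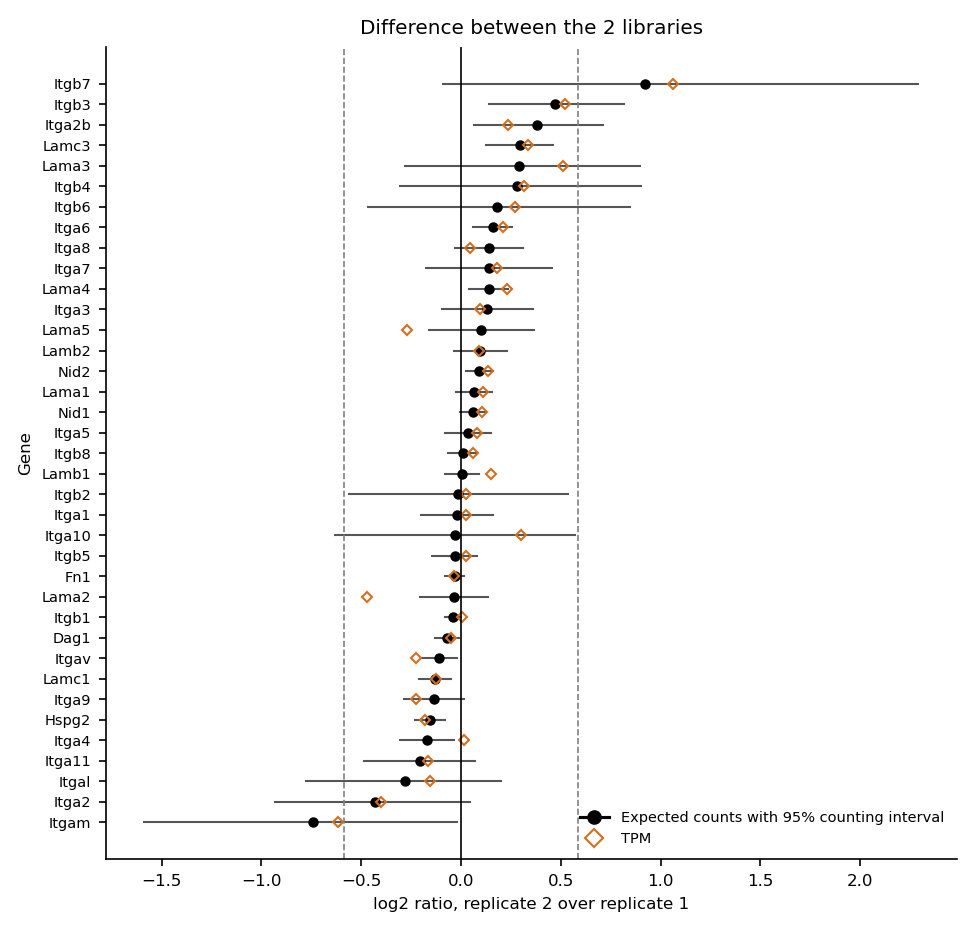
Log2 ratio of replicate 2 over replicate 1 for the 37 genes past the count filter: black points and bars give the ratio of counts with its 95% counting interval, orange diamonds the ratio of TPM, and dashed lines a 1.5-fold difference. Itgb7 and Itgam lie past the dashed lines, and the diamonds of Lama2 and Lama5 lie left of their bars. Ratios of TPM were not TMM-scaled.

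The other genes of these pathways, from lists compiled with earlier results of these data known, were mostly expressed. Of 20 other basement membrane genes 18 were detected and the median was 8.34 TPM. They were led by Sparc, a collagen-binding matrix protein gene, at 361 TPM, the fibulin gene Fbln1 at 92.0 TPM, the collagen IV gene Col4a1 at 79.8 TPM and the agrin gene Agrn at 69.8 TPM. Col4a3 and Col4a4, the collagen IV chain genes of mature kidney basement membrane, stood at 0.110 and 0.135 TPM. Of 20 integrin adaptor genes 18 were detected, with a median level of 35.7 TPM. These were led by Ilk, for integrin-linked kinase, at 228 TPM, with Zyx at 66.1 TPM, the focal adhesion kinase gene Ptk2 at 65.1 TPM and Lims1 at 64.0 TPM, while Parvg (0.515 TPM) and Ptk2b (0.565 TPM) were below 1 TPM.

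Of 19 further integrin ligand genes 15 were detected, and their median stood at 8.50 TPM. Mfge8, an RGD protein bound by αVβ5, stood at 64.8 TPM, Egfl7 at 57.1 TPM, the vitronectin gene Vtn at 54.1 TPM and Emilin1 at 51.7 TPM. The fibrinogen genes Fga and Fgb, for the ligand of αIIbβ3, stood at 0.055 and 0.090 TPM. Between the libraries 2 of the 20 other basement membrane genes differed by more than 1.5-fold: Col4a3 (-0.73, from 20 and 12 counts) and the netrin gene Ntn4 (0.70, from 37 and 65 counts), the last named after its values were seen. By the same measure none of the 20 adaptors, none of the 17 dystroglycan-related genes and none of the 16 ligand genes past the count filter did, beside the 10.8% of all genes.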

How the data were processed

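Total RNA-seq of 2 neural tube libraries was analysed. The authors deposited expected counts and TPM for genes and transcripts, made on mm10 with annotation M4, per the deposited file descriptions. Spike-ins are part of the deposited TPM and took 13.2% and 11.8% of it. A percent that gives a transcript's share of its gene was also deposited. The sources used here name no aligner or quantifier and do not say whether strand was used.

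Symbols, transcript types, coordinates and sequences were taken from GENCODE M21 (GRCm38, the same build), matched on identifiers without version (42462 of 43346 genes). Models can differ from M4: the leading full-length model had the same length in both for 29 of the 38 genes and was within 100 bases for 35. Itga1, Itga2 and Itgb5 were not. Gene totals exclude 97 spike-ins and 26248 numbered features.

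The genes and lists were chosen with earlier results of these data known. Text names every one of the 38 genes and, of other lists, the 4 highest and up to 2 below 1 TPM in both libraries. Of the symbols listed for dystroglycan partners 17 of 19 matched, and of ligands 19 of 22, the rest being alternative names. One gene of the basement membrane list and the assembly that needs it are not reported here.

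Expected counts were rounded. TMM factors and log2 ratios (prior count 2) came from edgeR 4.0.16 in R 4.3.3, for genes with 10 counts in at least 1 library and without spike-ins. DESeq2 1.42.0 size factors were an alternative. Exact 95% intervals for a ratio of counts cover counting error only, as do limits of 3 counts for a count of 0, since these reads carry no molecular identifiers and may be copies of one molecule. Simulated counts for this comparison had counting error and a spread of 5% between libraries. Past 1.5-fold were found all 100 genes made 2-fold different, all 100 made 3-fold different and 766 of 16820 left unchanged. The genes made different had a mean of 100 counts or more. Their recovery therefore does not apply to Itgb7 and Itgam, which had under 50 counts. Sequence shared with other genes was counted in windows of 100 bases. Other steps used Python 3.11.15 with scipy 1.17.1, numpy 2.4.6 and pandas 2.3.3. The labels call both libraries biological replicates, and values are mean ± SD over them.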

Additional observations from a re-analysis of the deposited data

How the results depend on the processing

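The count of detected genes stayed within 1.5 times of 29 under every alternative run: 32 at 0.5 TPM or with the posterior mean TPM deposited beside the TPM, 27 at 2 TPM, 30 with TPM rescaled without spike-ins, 29 on full-length coding transcripts, and from 29 to 31 without replicate 1 or 2. Without length scaling, as shares of expected counts, Lama4 took 37.5% of laminin α, behind Lama1, which had 1841 and 2049 counts against 1553 and 1818 for Lama4, and Itgb1 68.6% of integrin β. Itgb1 took 73.7% with posterior means and 76.2% on full-length transcripts. The β1-only α genes over Itgb1 moved to -1.68 with posterior means, -1.84 on full-length transcripts and -1.54 with a pseudocount of 1 TPM; the spread between libraries was so small that any change passes it. Genes past 1.5-fold between libraries fell to 0 with a minimum of 50 counts and to 0 at 2-fold, and numbered 2 with DESeq2 size factors, spike-in totals, no filter, a prior count of 0.5 or TPM. On full-length transcripts the Fn1 EDA share rose to 96.8% and the EDB share to 87.5%, and Itgav over Itga5 (-0.0732) and Lamb1 over Lamc1 (0.30) changed sign; Fn1 fell below Nid1 and Nid2. With posterior means Itga2b (6.125 TPM) stood above Itga1 (4.73 TPM) and Itgb6 (1.69 TPM) above Itgb2 (1.62 TPM), and Lamb3, Itgb4 and Itgb6 passed 1 TPM. Leaving out a library gave 44.3 to 50.3% for Lama4, 74.7 to 75.5% for Itgb1, -1.79 for the β1-only α genes, 58.3 to 60.5% for EDA, 75.0 to 84.5% for EDB and 48.4 to 64.7% for tail B of Itga6. Settings with full-length transcripts, without spike-ins and with TPM ratios were chosen after seeing the data. No paired analysis was possible because there was 1 group. Genes under 1 TPM rested on 4 to 59 counts, which limits their ratios.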
